A study of Rattus norvegicus with 196 samples.

Results

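The locus coeruleus (LC) of rats given fluoxetine (FT) was compared with the LC of control rats (Sham) by RNA-seq of pooled tissue punches. All samples labelled LC were taken, which gave 4 FT and 4 Sham samples of the 196 samples in the series. The FT animals were naive male Long-Evans rats, 2 months old, that drank fluoxetine at 18 mg/kg body weight per day for 6 weeks, and the Sham animals were the same kind of rat given water. No group carried a genetic change or a stress model, so the comparison shows the drug in healthy animals. Each sample pooled the punches of 10 of the 40 animals in its group, and the replicates bear the numbers 1, 3, 4 and 5. The FT and Sham samples of a number were processed in parallel, and they are treated here as pairs.

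The LC is the main noradrenergic nucleus of the brain. It lies in the dorsal pons beside the fourth ventricle and under the cerebellum, sends axons to most of the forebrain, cerebellum and spinal cord, and takes part in arousal, attention, stress responses and pain control. Fluoxetine blocks the serotonin transporter and so raises serotonin outside cells, and serotonin neurons of the raphe send axons to the LC.

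A gene was measured as the number of reads counted on an Ensembl transcript, and levels are given below as CPM, the reads of a transcript scaled to a library of fixed size, after TMM scaling, which corrects for libraries dominated by a few transcripts. CPM are not divided by transcript length, so they compare samples and not genes. Total counts on transcripts ranged from 7372372 to 16434775 in the Sham libraries and from 3367365 to 20956330 in the FT libraries. The 50 most abundant transcripts took 77.9% and 71.6% of the counts in the Sham and FT libraries of replicate 3, and 28.9% to 45.6% in the other 6. The FT library of replicate 3 was the shallowest and is the one in which levels of single transcripts are least precise.

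The label was checked first on transcripts that mark the LC and its neighbours. Th, tyrosine hydroxylase, which makes the precursor of noradrenaline and dopamine, had the second highest Sham median of 25 regions, 155 CPM on a scale common to all regions, after 320 CPM in the ventral tegmental area (VTA). Gal, the neuropeptide galanin that many LC neurons carry, had its highest median of the 25 regions in the LC, at 104 CPM against a median of 5.80 over the other regions. Rln3, relaxin-3, the peptide of the nucleus incertus that lies close to the LC, also had its highest median there, at 27.7 CPM against 8.54 in the raphe. Markers of cerebellar granule cells were present too, with Gabra6, a GABA-A receptor subunit of these cells, at 38.4 CPM in the LC and 89.5 CPM in the periaqueductal grey (PAG) against a median of 0.187 over the regions other than the LC. Other defining genes of noradrenergic neurons, among them the synthetic enzyme that follows Th and the noradrenaline transporter, have no identifier in the name table used here and were not analysed here.

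Th differed as much between replicates as between treatments. It read 269, 242, 47.4 and 24.0 CPM in Sham replicates 1, 3, 4 and 5, and 172, 17.5, 60.7 and 48.4 CPM in the FT replicates of the same numbers. The FT library of replicate 3 had the lowest Th of the 8, far under its Sham partner, and the groups overlapped. Gal was 251, 147, 45.9 and 27.1 CPM in Sham and 224, 4.71, 130 and 162 CPM in FT, so that the same library again lay below all others. Ttr, transthyretin of the choroid plexus, was 17221, 69339, 3145 and 15961 CPM in Sham and 5019, 309, 5982 and 7029 CPM in FT. Slc5a7, the choline transporter of cholinergic neurons such as cranial motor neurons, went the other way, with 13.7, 13.3, 23.2 and 31.7 CPM in Sham and 50.8, 109, 15.6 and 26.9 CPM in FT. The summed CPM of 14 oligodendrocyte markers ran from 1388 to 1647 in Sham and from 1471 to 1729 in 3 FT libraries, and was 4436 in FT replicate 3. The FT library of replicate 3 therefore stood apart in LC and neighbour transcripts. Its Sham partner stood apart too, with the highest Ttr of the 8. Summed astrocyte markers were 12288 CPM in that Sham library and 901 to 2960 CPM in the other Sham libraries. Ratios of pair 3 thus carry unusual values on both sides, and results below are also given without replicate 3 where that matters. In bulk tissue, fewer cells of a type and less RNA per cell cannot be told apart.

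**Figure D1:**
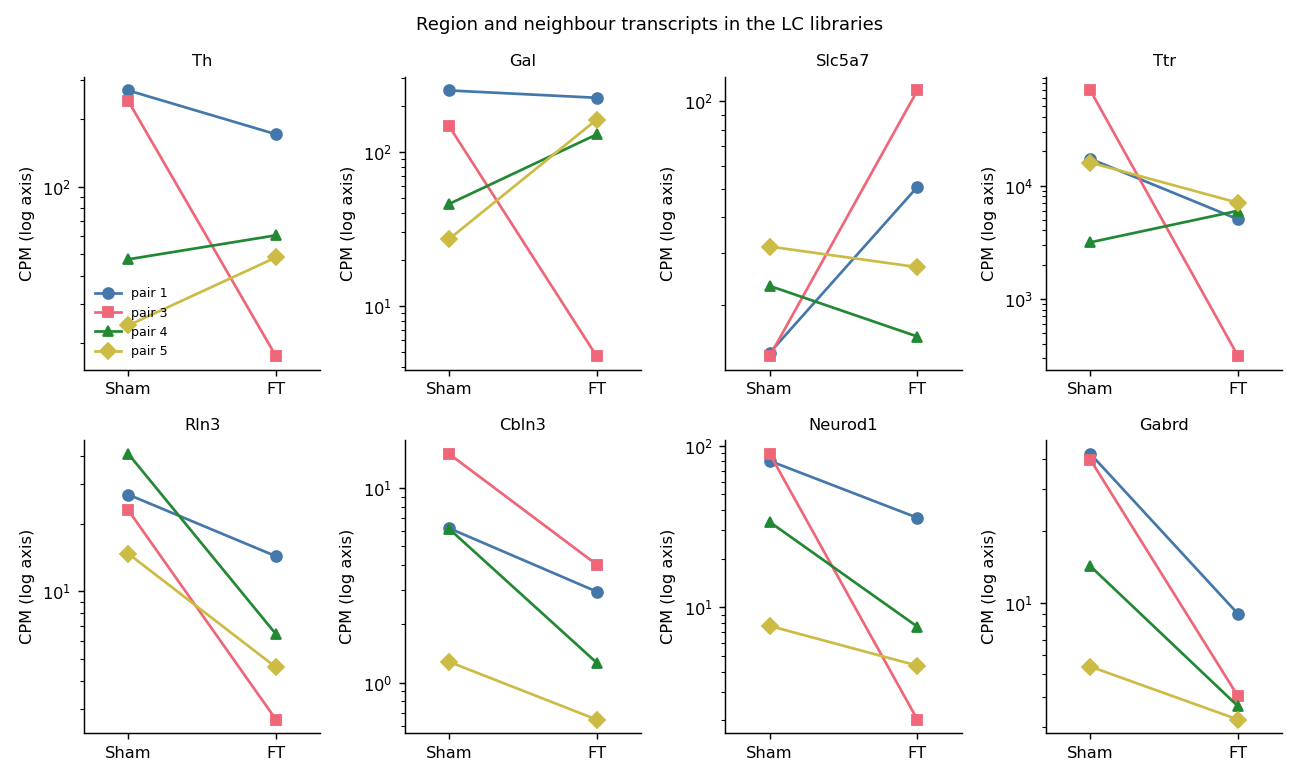
Levels of 8 transcripts in the LC libraries, in CPM on log axes, with Sham on the left and FT on the right of each panel and a line joining the samples of a replicate number. Th and Gal drop in pair 3 to 17.5 and 4.71 CPM in FT, while Rln3, Cbln3, Neurod1 and Gabrd are lower in FT in all 4 pairs.

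Few transcripts passed the test in the LC. Of 12784 transcripts that passed the filter on low counts, 3 passed edgeR's quasi-likelihood test with the replicate number as a block, at a false discovery rate (Benjamini-Hochberg adjusted p) no higher than 0.1 and an absolute log2FC no smaller than 0.32, and all 3 rose in FT. That is 0.0235% of the transcripts tested. They were Tsc22d2, a leucine zipper protein of the TSC22 family, Tmem126b, a mitochondrial inner membrane protein needed to assemble respiratory complex I, and a transcript without a name in the table used here, ENSRNOT00000020737.

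Tsc22d2 (ENSRNOT00000015119) was 19.9, 9.64, 47.0 and 54.3 CPM in Sham replicates 1, 3, 4 and 5, and 86.0, 26.2, 259 and 236 CPM in FT. Each FT sample was above its Sham partner, by 1.43 to 2.46 on the log2 scale, although the groups as a whole overlapped because replicate 3 was low in both. The fitted log2FC was 2.08 ± 0.217 (SE, 4 pairs), with an adjusted p of 0.0370. Tmem126b (ENSRNOT00000038279) was 36.4, 14.3, 40 and 38.4 CPM in Sham and 94.6, 48.4, 115 and 115 CPM in FT. All 4 FT samples were above all 4 Sham samples, as in 333 of the transcripts tested (2.6%), and the log2 ratio of the pairs, between 1.37 and 1.75, varied little. Its log2FC was 1.55 ± 0.176, with an adjusted p of 0.0489. ENSRNOT00000020737 was scarce in Sham, at 0.334, 0, 3.62 and 3.10 CPM, and reached 2.80, 0.673, 31.7 and 26.4 CPM in FT. In Sham it had 7 reads in replicate 1 and 0 in replicate 3, so its log2FC of 3.11 ± 0.312 (adjusted p = 0.0370) rested mostly on replicates 4 and 5. Without replicate 3, Tsc22d2 and ENSRNOT00000020737 passed again (adjusted p = 0.0714 for both), whereas Tmem126b had an edgeR adjusted p of 0.154 at a log2FC of 1.5. In that fit 6 of 13241 transcripts passed (0.0453%). Without replicate 1, Tmem126b and ENSRNOT00000020737 passed and Tsc22d2 did not (edgeR adjusted p = 0.12). Without replicate 4 or without replicate 5 no transcript passed in edgeR, with 1441 and 1251 at an unadjusted p under 0.05, while the log2FC of the 3 stayed between 1.54 and 3.13. A joint edgeR fit of 21 regions, in which the LC shared its estimate of the spread with the others, called 46 transcripts in the LC, none of these 3 but Tmem65, Psma5, Gabrd and Neurod1 among those described below.

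**Figure D2:**
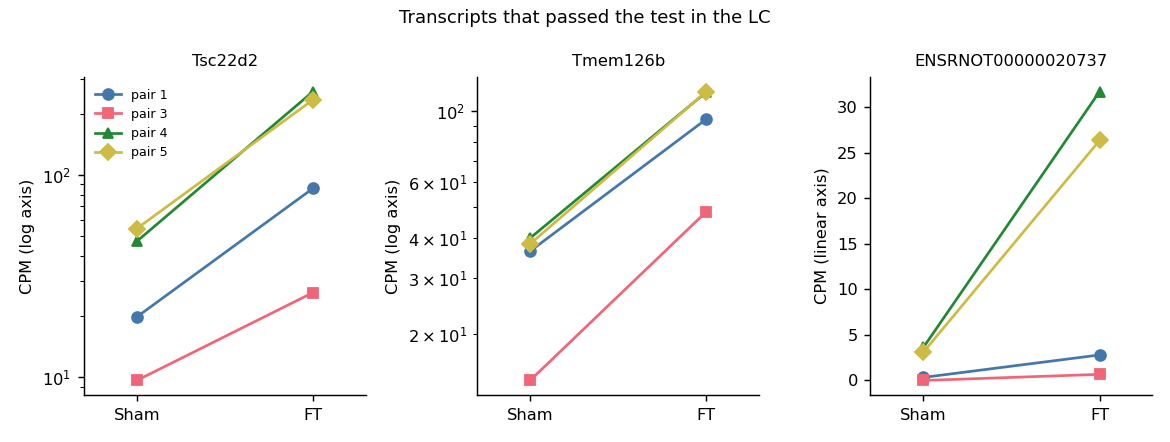
Levels of the 3 transcripts that passed the test in the LC, in CPM, for Sham and FT with a line for each replicate pair (log axes for Tsc22d2 and Tmem126b, linear for ENSRNOT00000020737). All 12 lines go up, and the unnamed transcript is above 20 CPM only in FT replicates 4 and 5.

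Tmem126b has a related gene next to it on chromosome 1 in the RefSeq annotation of rat (GRCr8), Tmem126a, which was looked at after the values of Tmem126b were seen. Tmem126a, also a mitochondrial membrane protein, was 28.5, 20.3, 21.6 and 20.4 CPM in Sham and 58.7, 29.6, 36.7 and 43.9 CPM in FT. Its groups did not overlap either, and its log2FC of 0.88 ± 0.190 had an adjusted p of 0.119.

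Many transcripts lay just past the threshold. The number with an adjusted p of at most 0.1 was 3, but 46 had at most 0.101, 90 at most 0.11 and 402 at most 0.15. An unadjusted p under 0.05 was found for 1985 transcripts (15.5%), 1036 of them higher (8.1%) and 949 lower (7.42%) in FT. DESeq2, the tool of the study, called 768 of 10660 transcripts (7.2%) at the same cut-offs, 461 higher and 307 lower, among them the 3 above. All 768 had an unadjusted edgeR p under 0.05, and 712 had the same direction in 4 of 4 pairs, against 3316 of the 12784 transcripts tested (25.9%). DESeq2 was run on the same libraries and pairs. Both counts therefore follow in large part from how the 768 were selected and are not separate support for them. The transcripts described next are ranked by edgeR's p and were not called by edgeR unless stated. Names were available for 1817 of the transcripts tested, and each of these had been called by the study in more than one region, so they are a selection made partly on these samples.

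Among named transcripts with the same direction in 4 of 4 pairs, the 12 highest ranked that were higher in FT began with Tsc22d2 and Tmem126b. Next came Tmem65, a protein of the mitochondrial inner membrane, with 15.3, 14.6, 82.2 and 83.0 CPM in Sham and 97.5, 29.6, 719 and 553 CPM in FT. Its log2FC was 2.48 ± 0.338 with an adjusted p of 0.101, and without replicate 3 it passed edgeR's test with a log2FC of 2.85 (adjusted p = 0.0714). MT-ATP8, a subunit of ATP synthase encoded in the mitochondrial genome, had a log2FC of 1.71 ± 0.258. Its reading frame overlaps that of the neighbouring subunit 6, so its reads could be split between them. Stxbp3, a Munc18 protein that binds syntaxins at the plasma membrane, had a log2FC of 1.22 ± 0.182, and Vps29, a subunit of the retromer that returns cargo from endosomes, one of 1.22 ± 0.194. Naa20, the catalytic subunit of an N-terminal acetyltransferase, was at 1.15 ± 0.179 and Bccip, a partner of BRCA2, at 1.34 ± 0.197. Zfp367, a zinc finger protein, had 1.45 ± 0.214 and Tmem184c, a transmembrane protein, 1.16 ± 0.175. Cabp4, a calcium-binding regulator of calcium channels, and Tube1, the centriolar epsilon-tubulin, were scarce, with Sham levels of at most 3.65 and 10.6 CPM. Tube1 had a pair ratio of 0.01 in pair 3, so its log2FC of 2.20 ± 0.347 came from the other 3 pairs.

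The 12 named transcripts that ranked highest on the lower side had adjusted p between 0.101 and 0.103 in edgeR. All were called lower by DESeq2, which called 8.32% of named transcripts lower. DESeq2 used the same libraries from which the 12 were picked by p, so its calls are not separate support. Txnip, which binds thioredoxin and curbs glucose uptake, was 40.5, 33.9, 33.8 and 39.8 CPM in Sham and 19.7, 14.1, 13.5 and 19.4 CPM in FT. The groups stood clear of each other, as in 170 of the transcripts tested on the lower side (1.33%), and the log2FC was -1.15 ± 0.187. Cplx2, complexin 2, which clamps the vesicle fusion machinery, had a log2FC of -1.55 ± 0.266. Chromatin regulators were in this set, with Ehmt2, the histone H3 lysine 9 methyltransferase G9a, at -1.04 ± 0.2, and Brd3, a reader of acetylated histones, at -1.02 ± 0.198. Ptms, parathymosin, was at -1.31 ± 0.189, and CXXC5, which binds unmethylated CpG, at -1.06 ± 0.181. Ptov1 had -0.99 ± 0.176. Sod3, the extracellular superoxide dismutase, had -1.28 ± 0.234 and S100a11, a calcium-binding protein, -1.67 ± 0.299. The largest differences were those of Rln3 and Gabrd. Rln3 was 26.9, 22.9, 40.8 and 14.7 CPM in Sham and 14.3, 2.69, 6.45 and 4.60 CPM in FT, with a log2FC of -1.91 ± 0.352. Gabrd, the GABA-A receptor delta subunit of extrasynaptic receptors and abundant in cerebellar granule cells, was 42.2, 39.9, 14.2 and 5.39 CPM in Sham and 8.96, 4.04, 3.67 and 3.22 CPM in FT, with a log2FC of -1.97 ± 0.364. Rln3 marks a neighbouring nucleus and Gabrd moved beside the granule cell markers Cbln3 and Neurod1 described below, and the part of the cells punched in these differences was not tested.

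**Figure D3:**
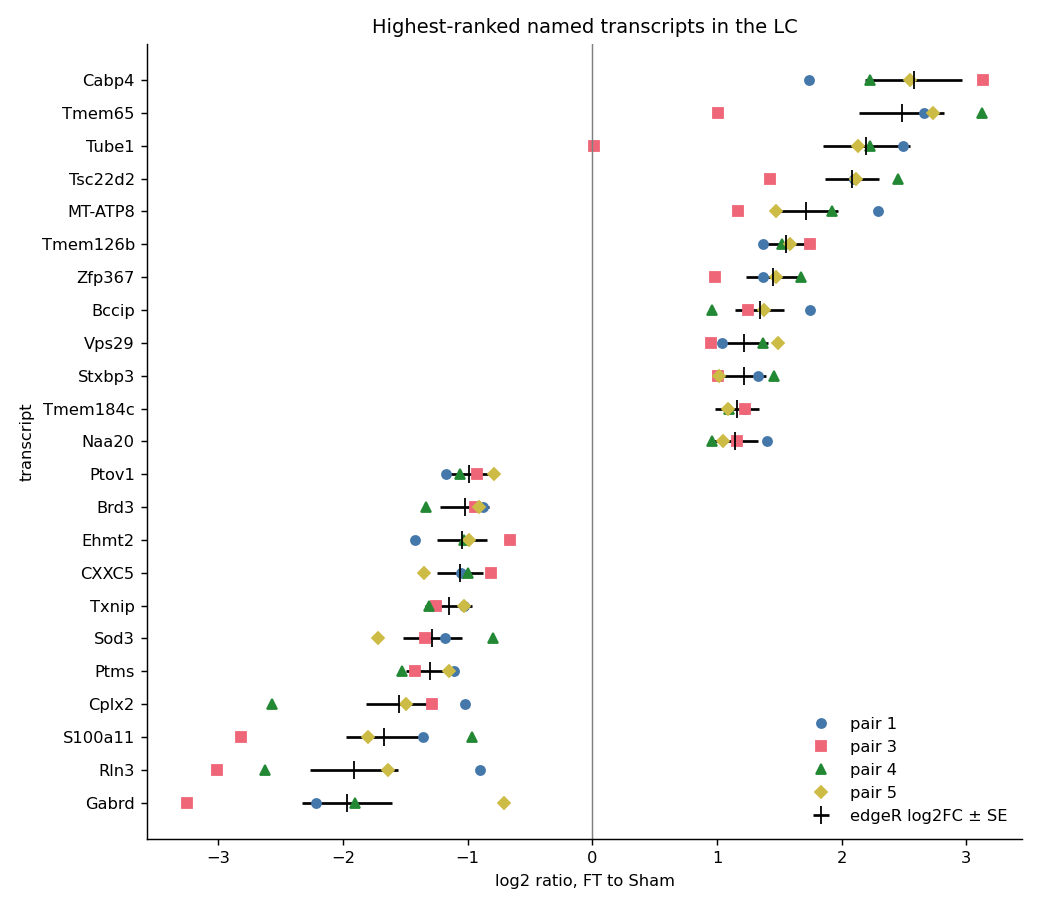
Log2 ratio of FT to Sham for 23 named transcripts ranked highest among those with the same sign in 4 of 4 pairs, 12 higher and 11 lower in FT, with coloured points for the 4 replicate pairs and black bars for the edgeR log2FC ± SE. The pair ratio nearest to 0 is that of Tube1 in pair 3, at 0.01.

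Named genes of mitochondrial energy supply leaned towards higher levels in FT. Only transcripts called by the study had names, and the study reported oxidative phosphorylation as raised in most regions. The direction of the mitochondrial lists may therefore be set in part by that selection. None of the 33 tested transcripts of oxidative phosphorylation, the respiratory complexes and ATP synthase, was called by edgeR, but 11 had an unadjusted p under 0.05 on the higher side and 0 on the lower side, against 354 (19.5%) and 237 (13%) of 1817 named transcripts. DESeq2 called 9 higher and 0 lower, against 14.8% and 8.32% of named transcripts. The median log2FC of the list was 0.39, beside 0.03 for all named and -0.02 for all tested transcripts. Ndufaf4, an assembly factor of complex I like Tmem126b, was 13.7, 12, 17.6 and 17.9 CPM in Sham and 33.3, 19.5, 43.5 and 48.8 CPM in FT, with no overlap and a log2FC of 1.22 ± 0.205 (edgeR adjusted p = 0.101). Atp5f1, a stalk subunit of ATP synthase, was 213, 158, 168 and 162 CPM in Sham and 367, 266, 401 and 360 CPM in FT, again without overlap, with a log2FC of 0.99 ± 0.201. UQCRB, a subunit of complex III, had 0.99 ± 0.220 and Ndufab1, the mitochondrial acyl carrier protein and a subunit of complex I, 1.11 ± 0.315.

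The median of this list was not the same in every pair. It was -0.34 in pair 1, 0.29 in pair 3, 0.87 in pair 4 and 0.69 in pair 5. The mitochondrial ribosome followed the same order, with medians of -0.36, -0.03, 0.91 and 0.82 over 25 transcripts and a fitted median of 0.35. Of these 25, 8 had an unadjusted p under 0.05 on the higher side and 2 on the lower side, against 19.5% and 13% of named transcripts. DESeq2 called 7 higher and 1 lower, against 14.8% and 8.32%. Mrpl15, a protein of the large subunit, was 36.1, 32.3, 29.6 and 30.4 CPM in Sham and 68.0, 57.9, 75.5 and 75.3 CPM in FT, with a log2FC of 1.11 ± 0.184, and it did not overlap. Mrpl51 had 23.5, 30.3, 121 and 112 CPM in Sham and 131, 22.9, 1055 and 812 CPM in FT. Its log2FC was 2.20 ± 0.533, and without replicate 3, the one pair in which FT was lower, it passed edgeR's test at 2.83 (adjusted p = 0.0714). Mrpl49 was at 1.03 ± 0.240 and Mrpl52 at -0.78 ± 0.189. Of 22 transcripts of import and matrix proteins, 5 had an unadjusted p under 0.05 on the higher and 2 on the lower side, against the same 19.5% and 13%. One of the 5, Slc25a17, with a log2FC of 1.10 ± 0.207, belongs to the mitochondrial carrier family but works in peroxisomes. Timm17a and Timm21 of the inner membrane translocase had 1.10 ± 0.251 and 0.77 ± 0.187. Slc25a10, the dicarboxylate carrier, was at -0.99 ± 0.312.

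Ubiquitin and proteasome genes had a median log2FC of 0.18. An unadjusted p under 0.05 was found for 11 of 46 on the higher and 3 on the lower side, against 19.5% and 13% of named transcripts. Ube2v2, a partner of the enzyme that builds lysine 63 ubiquitin chains, was 88.2, 71.8, 166 and 171 CPM in Sham and 367, 208, 307 and 316 CPM in FT, without overlap, and its log2FC was 1.34 ± 0.252. Psma5, a subunit of the 20S proteasome core, had 0.97 ± 0.190 and Commd3 0.91 ± 0.176. DESeq2 called 10 of the 46 higher and 3 lower, against 14.8% and 8.32% of named transcripts. Of 11 chaperones and their partners, 4 had an unadjusted p under 0.05 on the higher and 1 on the lower side, against 19.5% and 13%. The DnaJ proteins Dnaja2, Dnajc24 and Dnajb9 had log2FC values of 0.74 ± 0.192, 0.79 ± 0.206 and 1.01 ± 0.279. None of the 3 overlapped between groups, as in 2.6% of all transcripts tested on the higher side. They were picked for a small p, so this is partly set by that choice. Hspbp1, which releases nucleotide from Hsp70, was at -0.77 ± 0.191.

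Chromatin regulators were split. Of 24 tested, 6 had an unadjusted p under 0.05 on the higher and 9 on the lower side, the latter with Ehmt2 and Brd3, against 19.5% and 13% of named transcripts. Cbx3, the heterochromatin protein HP1 gamma, had a log2FC of 0.99 ± 0.188 and Sirt3, which the list holds as a deacetylase of the sirtuin family but which works mainly in mitochondria, 0.87 ± 0.175. The 30 transcripts of the cytosolic ribosome leaned the other way from those of the mitochondrial ribosome. They had a median log2FC of -0.35, and medians by pair of -0.72, -0.21, -0.31 and -0.36. At an unadjusted p under 0.05, 1 was higher and 8 were lower, against 19.5% and 13% of named transcripts. Rpl18 was at -0.83 ± 0.218 and Rps28 at -0.67 ± 0.209. Rps10l1, at -1.18 ± 0.229, is named as a copy of another ribosomal gene, and reads of near-identical copies cannot be placed with certainty. DESeq2 called 0 of 29 higher and 4 lower, against 14.8% and 8.32% of named transcripts, and edgeR called none of the 30.

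**Figure D4:**
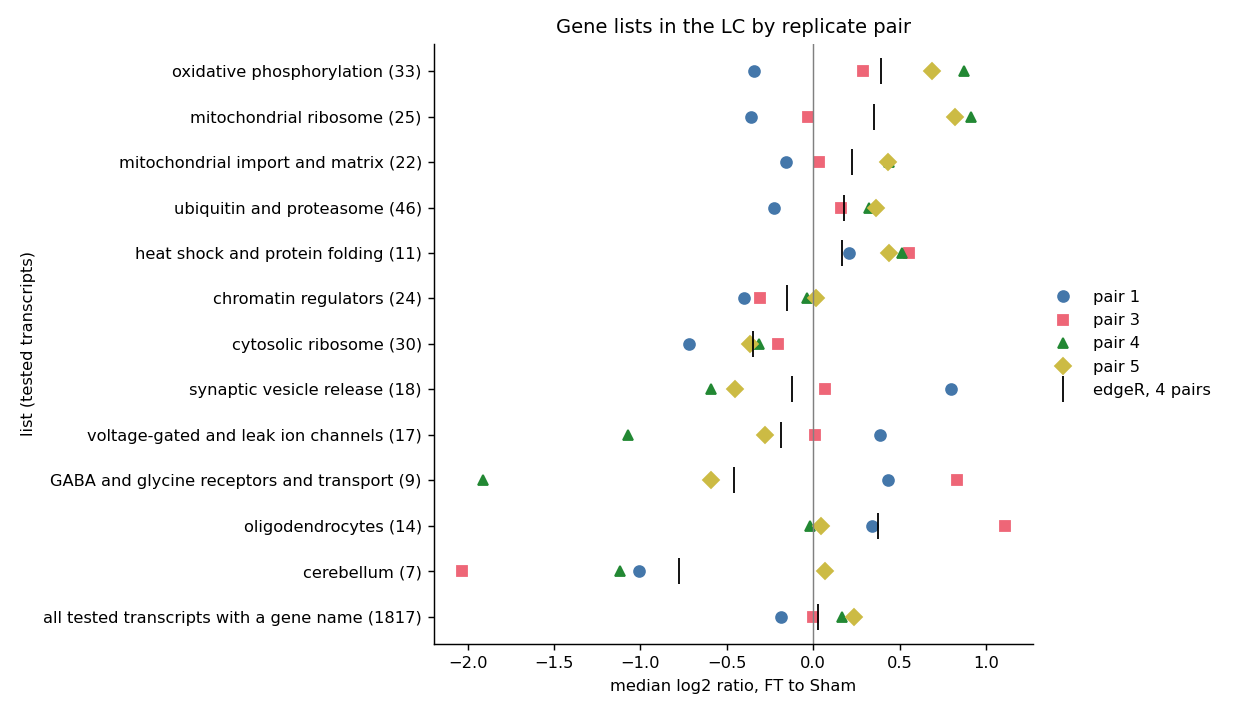
Median log2 ratio of FT to Sham for 12 gene lists and for all named transcripts, by replicate pair (coloured points) and in the edgeR fit of 4 pairs (black bars), with the number of tested transcripts in brackets. Mitochondrial lists are highest in pairs 4 and 5, the cytosolic ribosome is below 0 in all 4 pairs, and the GABA list runs from -1.91 in pair 4 to 0.83 in pair 3.

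Genes of noradrenergic and serotonergic signalling gave few readings. Th had a log2FC of -0.54 ± 0.651 (edgeR adjusted p = 0.736) and, without replicate 3, of 0.24 (adjusted p = 0.815). Gal was at 0.32 ± 0.969 (adjusted p = 0.909) and at 1.32 without replicate 3 (adjusted p = 0.381). In pairs 4 and 5 both were higher in FT, by 0.35 and 1.0 for Th and by 1.5 and 2.57 for Gal, and in pairs 1 and 3 both were lower. Enzymes that make or regenerate the biopterin cofactor of Th were measured too. Qdpr, which regenerates the cofactor and is also made by oligodendrocytes, had 0.65 ± 0.339, and 0.27 without replicate 3. Pts had 0.47 ± 0.239, and Spr had 0.02 ± 0.332, and none passed the test. Htr1a, an inhibitory serotonin receptor, had at most 2.69 CPM and Slc6a3, the dopamine transporter, at most 0.183 CPM in any library, and both were removed by the filter. Adrenergic receptors had no name in the table and were not analysed here.

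Transmission genes were followed in lists of receptors, channels and vesicle proteins. Of 18 vesicle release transcripts, 4 had an unadjusted p under 0.05 on the higher and 3 on the lower side, against 19.5% and 13% of named transcripts. Besides Stxbp3 and Cplx2, Syt5, a vesicle synaptotagmin, had a log2FC of -1.0 ± 0.236 and Sytl2, a Rab27 effector, 0.98 ± 0.247. Of 17 channel transcripts, Hcn2, a pacemaker channel, was at -1.17 ± 0.254, Cacnb3, a calcium channel beta subunit, at -1.17 ± 0.258 and Kcns3, a silent potassium channel subunit, at 1.18 ± 0.329. DESeq2 called these 3 of the 17, 1 higher and 2 lower, against 14.8% and 8.32% of named transcripts. Calm2, one of the calmodulin genes, was 1121, 1699, 1553 and 1455 CPM in Sham and 2126, 2787, 2982 and 3354 CPM in FT, without overlap, with a log2FC of 0.95 ± 0.242. Slc17a6, the vesicular glutamate transporter of brainstem neurons, had 0.43 ± 0.214, and Grm4, a metabotropic glutamate receptor of granule cells, -1.18 ± 0.438. Of 13 neuropeptide transcripts 2 had an unadjusted p under 0.05, both lower in FT, where 13% of named transcripts were lower by that measure. They were Pcsk1n, a precursor of convertase inhibitors, at -0.91 ± 0.317 and Nmb, neuromedin B, at -0.94 ± 0.364. Apart from Gabrd, no transcript of the 9 in the GABA and glycine list had an unadjusted p under 0.05. The list's pair medians were 0.43, 0.83, -1.91 and -0.59. In pairs 4 and 5 alone edgeR called 8 of the 9 lower, where it called 15.1% of all transcripts lower. In pairs 1 and 3 alone it called 2 higher and 1 lower, where it called 6.56% of all transcripts in either direction. The shares of named transcripts in these fits are not given here, so the counts are not compared with them.

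Differences in cell type markers between FT and Sham varied between replicate pairs, and edgeR called none of the markers tested. The 7 cerebellar transcripts all had a negative log2FC, with a median of -0.78. An unadjusted p under 0.05 was found for 3 of them, where 13% of named transcripts were lower by that measure. The median was -0.50 without replicate 3, and by pair it was -1.01, -2.03, -1.12 and 0.07. Cbln3, a cerebellin of granule cells, was 6.21, 15.0, 6.17 and 1.28 CPM in Sham and 2.93, 4.04, 1.26 and 0.645 CPM in FT, with a log2FC of -1.54 ± 0.378 (edgeR adjusted p = 0.136). Neurod1, a transcription factor of granule neurons, was 80.6, 89.1, 33.8 and 7.67 CPM in Sham and 35.8, 2.02, 7.59 and 4.35 CPM in FT, at -1.94 ± 0.522. Cbln1 had -0.83 ± 0.329, and -0.50 without replicate 3. Both Cbln3 and Neurod1 were lower in FT in 4 of 4 pairs and were called lower by DESeq2, whereas Gabra6 was not, with pair ratios of 1.14, -3.34, -1.97 and 0.07. The summed CPM of the 7 was 1274, 2190, 457 and 437 in Sham and 687, 715, 513 and 500 in FT, so that it was lower in FT in pairs 1 and 3 and higher in pairs 4 and 5, and none of the 7 was at 0 throughout. Markers of choroid plexus and meninges summed to 3518 to 71126 CPM in Sham and 1446 to 7545 CPM in FT, most of it Ttr except in FT replicate 3, and overlapped. Of 14 oligodendrocyte transcripts, 2 had an unadjusted p under 0.05 on the higher and 0 on the lower side, against 19.5% and 13% of named transcripts. They were Tspan2 at 0.77 ± 0.263 and Olig2 at 0.86 ± 0.319. The median of the list was 0.37 and, without replicate 3, 0.15, and by pair it was 0.34, 1.11, -0.02 and 0.05. Of 8 neuronal transcripts 3 had a positive log2FC, and the median was -0.06 and, without replicate 3, -0.21. Vsnl1 and Thy1 of this list had 0.74 ± 0.280 and 0.66 ± 0.278, and 0.50 and 0.36 without replicate 3. Myl9, a myosin light chain of mural cells and the one vascular marker named, was 14 to 31.6 CPM in Sham and 9.61 to 10.8 CPM in FT, at -0.83 ± 0.248. Summed markers of microglia and blood overlapped between groups, at 64.0 to 116 against 81.4 to 132 CPM and at 323 to 3061 against 375 to 1104 CPM. How far such differences in the cells collected enter the results above was not tested.

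The replicate pairs did not respond alike. Across the 12784 transcripts, the log2 ratio of FT to Sham in pair 4 had r = 0.65 with that in pair 5, and pair 1 had r = 0.32 with pair 3. Between these sets of pairs r lay between -0.01 and 0.14. These values describe transcripts of the same libraries, which are not independent of each other. Fitted alone, pairs 4 and 5 gave 4081 calls of 13464 transcripts (30.3%), and pairs 1 and 3 gave 832 of 12687 (6.56%). Of the 4081, 3814 were tested in pairs 1 and 3, and 2170 of these had the same sign there. Of the 832, 818 were tested in pairs 4 and 5, and 460 had the same sign. The 2 sets shared 334 calls, of which 205 were in the same direction, 138 higher and 67 lower in FT. Pairs 4 and 5 called 30.3% of all transcripts, so part of this sharing follows from the number of calls alone. The share of equal signs over all tested transcripts is not given here. Tsc22d2 and Tmem126b were called in both sets.

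Genes picked from earlier results of the series as a whole showed the same split between pairs. Otub1, a deubiquitinase, was 688, 290, 292 and 189 CPM in Sham and 744, 324, 1130 and 770 CPM in FT. Its pair ratios were 0.11 and 0.16 in pairs 1 and 3 and 1.95 and 2.03 in pairs 4 and 5, and its log2FC of 1.07 ± 0.390 had an edgeR adjusted p of 0.249. Trim28, a corepressor of KRAB zinc finger proteins, had ratios of -0.64 and -0.41 in pairs 1 and 3 and of 1.80 in both pairs 4 and 5. Mat2a, which makes S-adenosylmethionine, had 3.20 and 1.75 in pairs 1 and 3 and -2.45 and -1.92 in pairs 4 and 5, and a fitted log2FC of 0.01 ± 0.949.

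**Figure D5:**
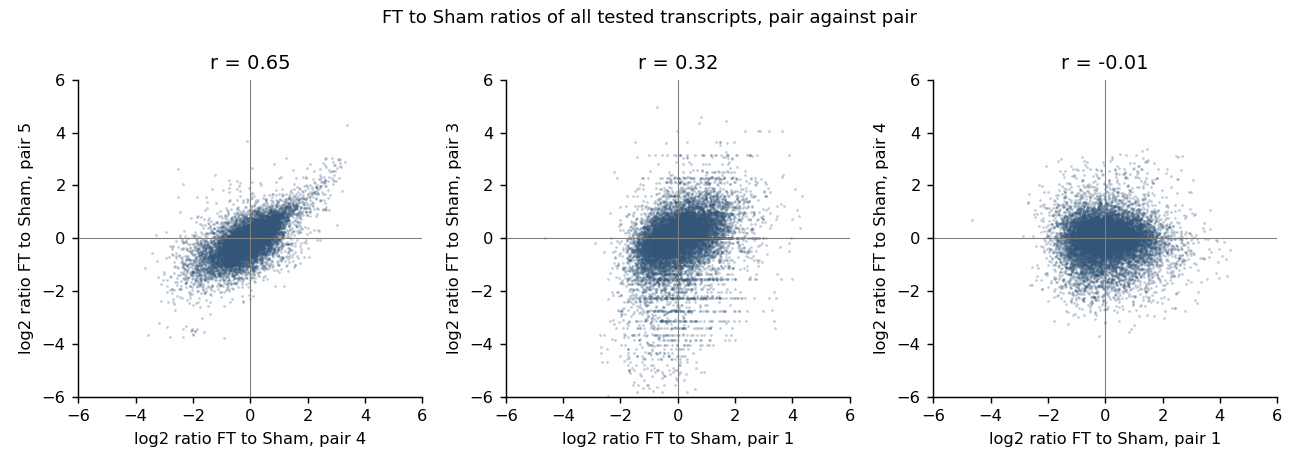
Log2 ratio of FT to Sham of the 12784 tested transcripts in one replicate pair against another, for pairs 4 and 5, 1 and 3, and 1 and 4, with axes cut at 6 in either direction (1, 13 and 0 transcripts lie outside). The cloud is drawn out along the diagonal for pairs 4 and 5 (r = 0.65), less so for pairs 1 and 3 (r = 0.32), and is round for pairs 1 and 4 (r = -0.01).

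The response of the LC was then set against those of the raphe, the PAG and the VTA, 3 brainstem and midbrain regions chosen for comparison, by the interaction of treatment and region in edgeR. Samples of a replicate number in different regions were taken to come from the same pools of animals. The fit gave each replicate of each region its own block, so its p-values do not account for these shared animals. No transcript of 13690 differed between LC and raphe and none of 13733 between LC and VTA at an adjusted p of at most 0.1, though 986 and 1946 had an unadjusted p under 0.05. Between LC and PAG, 4 of 13992 transcripts (0.0286%) differed, all lower in the LC. They were Gabrd, Il16, Tspan9 and ENSRNOT00000064840. Gabrd had a log2FC of -1.97 in the LC and of 0.98 ± 0.254 in the PAG, a difference of -2.93 ± 0.464 (adjusted p = 0.0889). Il16, a cytokine precursor, differed by -2.51 ± 0.379 and Tspan9, a tetraspanin, by -1.89 ± 0.298, with the same adjusted p. Cbln3 and Neurod1 had log2FC values of 0.95 and 0.61 in the PAG, where granule cell markers were also found, and differences from the LC of -2.46 ± 0.437 and -2.53 ± 0.629 that did not pass (adjusted p = 0.179 and 0.396). Tmem126b was at 0.39 ± 0.215 in the PAG, and the difference of 1.17 ± 0.287 did not pass (adjusted p = 0.388). Its log2FC was 0.801 in the raphe (edgeR adjusted p = 0.089) and -0.028 in the VTA. Tsc22d2 had 1.76 in the raphe (adjusted p = 0.0576), 1.52 in the PAG and 1.23 in the VTA. ENSRNOT00000020737 had 2.61 in the raphe (adjusted p = 0.0581), 2.31 in the PAG and 1.298 in the VTA. These transcripts thus also rose in the raphe, while none of their PAG and VTA values passed edgeR's test. Leaving out replicate 1, 3 or 4 removed all 4 differences between LC and PAG. Without replicate 5, Gabrd and Il16 passed again and Tspan9 and ENSRNOT00000064840 did not.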

How the data were processed

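The authors deposited raw counts per Ensembl transcript for each of the 196 samples, 29188 transcripts, with no normalization. They used STAR, HTSeq and FastQC on 76 bp paired-end reads from a stranded total RNA kit, with the genome rn5. The labels call the molecule polyA RNA, whereas the protocol names a total RNA kit, and which of these holds bears on transcripts such as MT-ATP8. Versions and the strand setting of counting are not given in the sources used here, so overlapping genes and reads of near-identical copies are uncertain. The 5 summary lines of each file were dropped. Reads outside features made up 22.8% to 44.9% and ambiguous reads 2.25% to 7.79% in the LC libraries.

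The 8 LC samples were fitted with edgeR 4.0.16 in R 4.3.3 (TMM factors, filterByExpr at its defaults, which ask for 10 reads per library and 15 in all, replicate number as a block, quasi-likelihood test). The SE was obtained as |log2FC| over the root of the F statistic. Pair ratios used log2 CPM with a prior count of 2. Samples of a number came from separate animal pools of FT and Sham processed in parallel, and the deviations of same-numbered samples from their group means correlated at r = 0.36 to 0.68, so they were taken as pairs. Sham 4 with FT 5 (r = 0.37) and Sham 5 with FT 4 (r = 0.45) correlated too, so these values do not tell numbers 4 and 5 apart. With the block, p-values measure the spread of the FT to Sham difference between pairs of pools. Differences between pools that both samples of a pair share do not enter them. Alternatives were DESeq2 1.42.0, limma-voom (limma 3.58.1), median-ratio factors, no filter, a stricter threshold, no block, a robust fit, a joint fit of 21 regions, and pairs left out. Scripts were tested on simulated data.

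Names came from a supplementary table of the study that lists 1989 transcripts, of which 1844 had a usable name. None of the Ensembl identifiers could be matched to RefSeq genes. Genes were named by a rule: every called transcript, the 12 highest ranked named ones in each direction with the same sign in 4 of 4 pairs, all members of the catecholamine and serotonin lists, up to 4 members of each other list by edgeR p, and genes followed across the series. Members and lists were chosen with earlier results of these data known. Results for a few of these genes are not reported here.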

Additional observations from a re-analysis of the deposited data

Results flagged for a closer look

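In groups of 4 samples, a value was marked where its gap to the nearest other sample, divided by the range of the group, exceeded Dixon's 95% critical value for 4 samples, which chance does in about 1 of 20 groups. Of 176 groups examined, 23 (13.1%) were marked, and 17 of these marks fell on a library of replicate 3. In FT replicate 3 the marked levels were 74.0 CPM for Naa20, 236 for Ptms, 84.8 for Cplx2, 45.7 for Ehmt2, 2134 for Qdpr, 82.7 for Commd3, 475 for Rps28, 98.9 for Hcn2 and 381 for Pcsk1n. Naa20 and Commd3 were low there and the others high. The summed markers of oligodendrocytes (4436 CPM), astrocytes (10802 CPM) and blood (1104 CPM) were also highest in that library among the 4 FT samples, while those of astrocytes (12288 CPM) and blood (3061 CPM) were higher still in Sham replicate 3. In Sham replicate 3 the marked levels were 14.3 CPM for Tmem126b, which was low, and 634 for Ptms, 207 for Cplx2, 129 for Hcn2 and 766 for Pcsk1n, which were high. Ptms, Cplx2, Hcn2 and Pcsk1n were thus high in both libraries of that pair and lower in FT within it. In replicate 1 the marked levels were 28.5 CPM for Tmem126a and 1388 CPM for the oligodendrocyte sum in Sham, and 8.96 CPM for Gabrd, 35.8 for Neurod1, 60.1 for Gabra6 and 629 for Vsnl1 in FT.

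Effects of FT that differed between LC and PAG by the edgeR interaction were those of ENSRNOT00000064840 (LC minus PAG log2FC of -3.01), Gabrd (-2.93), Il16 (-2.51) and Tspan9 (-1.89). Each had a negative log2FC in the LC and a positive one in the PAG. Il16 and Tspan9 were named because they passed this test.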

How the results depend on the processing

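The number of transcripts called depended on the processing. It was 3 in the edgeR fit and with the stricter threshold, 768 with DESeq2, 57 with median-ratio factors, 211 with limma-voom, 871 without the low-count filter, 3 in the robust fit, 46 in a joint fit of 21 regions that share 1 estimate of the spread, 4081 for pairs 4 and 5 alone and 832 for pairs 1 and 3 alone, and from 0 to 6 when replicates were left out in turn, with 4 when the FT library of replicate 3 alone was removed, an alternative chosen after seeing the data. Without the replicate block it was 0 in edgeR, with 670 at an unadjusted p under 0.05. The 3 transcripts named in the report were also called by DESeq2, limma-voom, median-ratio factors, the robust fit and the fit with no filter, and none of the 3 was called in the joint fit, which called 27 transcripts higher and 19 lower. Of the listed transcripts, 1 was called in the edgeR fit of the LC, 3 in the joint fit, 69 with DESeq2, 7 with median-ratio factors, 29 with limma-voom, 77 without the filter, 222 for pairs 4 and 5, 50 for pairs 1 and 3, 0 without the replicate block, and 0 to 2 with a replicate left out. Over all transcripts tested, DESeq2 called 7.2%, pairs 4 and 5 alone 30.3% and pairs 1 and 3 alone 6.56%. The counts of listed transcripts show the effect of processing and are not compared with those shares. The 4 differences between LC and PAG became 0 without the block and 0 to 5 with a replicate number left out, while those with raphe and VTA stayed at 0 throughout.

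Signs changed for genes that did not pass the test. The log2FC of Th was 0.69 for pairs 4 and 5, 0.20 without the FT library of replicate 3, and -1.15 to 0.24 with a replicate left out. That of Gal was -1.88 for pairs 1 and 3, and -0.62 to 1.32 with a replicate left out. Spr was at -0.25 without the block, -0.064 with limma-voom, -0.71 for pairs 1 and 3, and -0.28 to 0.42 with a replicate left out. Mat2a was at -0.33 without the block, -0.28 with limma-voom, -2.17 for pairs 4 and 5, -0.78 without the FT library of replicate 3, and -1.13 to 1.11 with a replicate left out. Trim28 was at -0.53 for pairs 1 and 3 and Slc5a7 at -0.38 for pairs 4 and 5. The cause was not tested. Of the 78 tested transcripts examined here, those named in the report for the LC, the remaining 72 kept their sign under these alternatives, and of 266 list medians under an alternative 12 moved by more than the spread between pairs. The 50 most abundant transcripts took 77.9% and 71.6% of the counts in the libraries of replicate 3, which left fewer reads for the rest, and transcripts with a few reads per library, such as ENSRNOT00000020737, are the least certain.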
